A study of Rattus norvegicus with 4 samples.

Results

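The genes described here take iron into the cell, store and release it, export it, sense it, or break down heme. They are 9 genes chosen by symbol: Tfrc, Slc11a2, Fth1, Ftl1, Ncoa4, Slc40a1, Ireb2, Aco1 and Hmox1, out of 16881 symbols in the count tables. All 9 were present, each as a single entry, and 8 of them reached 10 counts in at least 1 library and were tested. Slc40a1 did not. The cells were rat neural stem/progenitor cells, labelled wild type, grown on PUCL@CNT1, which the series title describes as an electroconductive nanohybrid scaffold, or on bare PUCL. In differentiation medium, cells had spent 24 h in the stemness-maintaining medium (knockout DMEM/F12 with StemPro Neural Supplement and antibiotics) and a further 1.5 d in a neuronal culture medium, B-27 Plus. In maintenance medium, cells had spent 24 h in the stemness-maintaining medium. Each combination of medium and platform was 1 library without replicates, and the labels do not say how many animals or cultures it came from.

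Iron enters most cells bound to transferrin, which the transferrin receptor carries into endosomes, and what is not used at once is kept inside ferritin shells. The iron regulatory proteins read the free iron in the cytosol. When iron is scarce they bind stem-loops called iron-responsive elements, which keeps the transferrin receptor mRNA stable and holds back translation of ferritin mRNAs. Heme oxygenase opens the heme ring, freeing iron, carbon monoxide and biliverdin. Dividing neural progenitors need iron for DNA synthesis and respiration, and oligodendrocyte lineage cells are known for a high iron demand.

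Libraries held between 6035848 and 6855984 counts. Of 7 neural stem/progenitor markers, 6 had 10 or more counts in a library (Nes and Sox2 had at least 2363 counts everywhere) and Msi1 was at 0 in every library. Their sum was 10204 CPM (counts scaled by library size) on PUCL@CNT1 and 8071 on PUCL in differentiation medium, against 6630 and 6303 CPM in maintenance medium. Vim made up most of it in every library, with 50754 and 31121 counts against 29953 and 28449 in the same order. Sox2 had 3879 and 6301 counts against 3989 and 4219. After the switch 2 of the 7 rose in the edgeR test described below, and for platform 1 of the 7 was lower on PUCL@CNT1. Summed neuron markers stood at 54.5 CPM on PUCL@CNT1 and 86.9 on PUCL in differentiation medium, against 116 and 136 CPM in maintenance medium. Map2 made up most of that sum in every library, with 238 and 407 counts against 614 and 552 in the same order. Dcx went the other way, with 61 and 79 counts against 39 and 48. Tubb3 did so on PUCL@CNT1 (62 against 20 counts) but not on PUCL (25 against 28). None of the 6 neuron markers passed in edgeR. Of 10 microglia and macrophage markers, 9 were at 0 in every library, and the other, Cd68, ranged from 0 to 47 counts. Summed markers of the oligodendrocyte lineage stood at 1546 CPM on PUCL@CNT1 and 1541 on PUCL in differentiation medium, against 838 and 936 CPM in maintenance medium. In the edgeR test 4 of the 9 rose. Summed mural cell and fibroblast markers stood at 379 CPM on PUCL@CNT1 and 504 on PUCL in differentiation medium, against 767 and 1100 CPM in maintenance medium. Of the 8 genes in that list 1, Acta2, fell in the edgeR test and made up most of the sum, while Rgs5, Lum and Dcn were at 0 in every library. The part of these markers in the results below was not tested. In bulk RNA, fewer cells of a type and less RNA per cell cannot be told apart.

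After the switch to differentiation medium Tfrc and Hmox1 fell and Fth1 rose, 3 of the 8 tested genes. The test was edgeR's quasi-likelihood F test, fitted over the 4 libraries with medium and platform as additive terms, with Benjamini-Hochberg adjustment over 10516 genes at a threshold of 0.05. That test called 2.81% of all genes for medium, 1.8% as higher and 1.02% as lower (189 and 107 genes, or 139 and 122 when scaled by total counts). At an unadjusted p under 0.05 it marked the same number of iron genes, 3, and 12.1% of all genes. It uses the platforms as repeats of the medium change, and most of its spread comes from other genes. The median fitted log2 medium change of the 8 genes was -0.32, beside 0.0033 for all genes tested. Both differentiation libraries lay above both maintenance libraries for Fth1 and Ftl1, as for 19.5% of all genes. Both lay below for Tfrc and Slc11a2, as for 19.3% of all genes. Medium and the further 1.5 d in culture cannot be told apart.

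**Figure D1:**
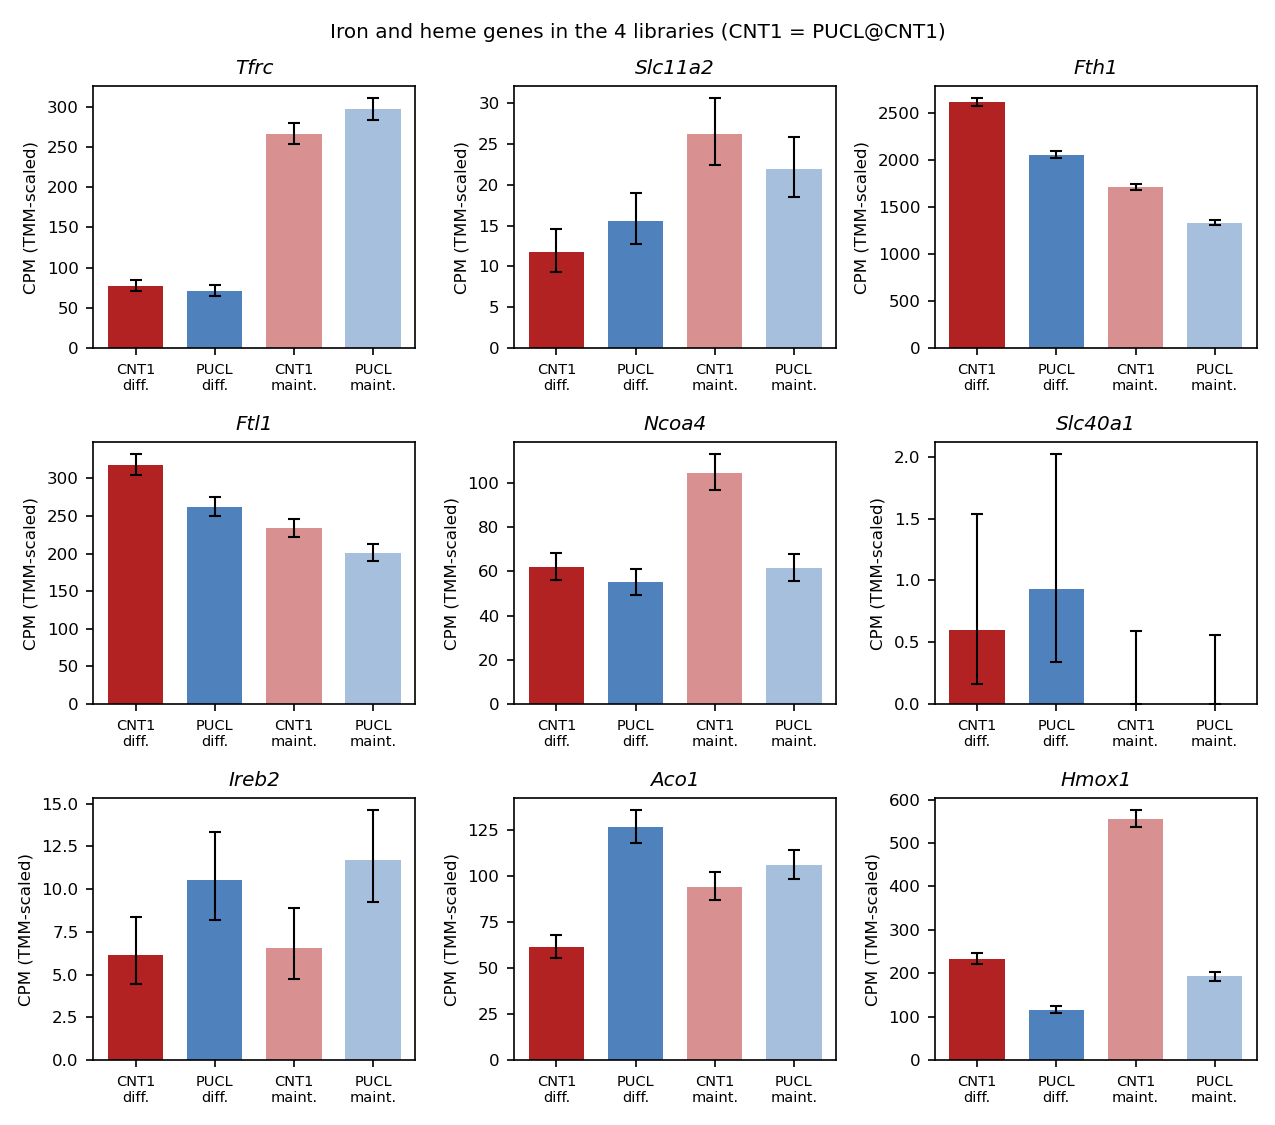
Scaled level (CPM, vertical axes from 0) of each of the 9 genes in the 4 libraries; bars are single libraries, red for PUCL@CNT1 and blue for PUCL, dark for differentiation and pale for maintenance medium, and error bars are exact 95% Poisson intervals for counting error only. Tfrc sat at 77.6 and 71.1 CPM in differentiation medium, below 267 and 297 CPM in maintenance medium, while Hmox1 was highest, at 556 CPM, on PUCL@CNT1 in maintenance medium.

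Tfrc, the transferrin receptor, had the largest fitted medium change of the 8 genes. It stood at 77.6 CPM on PUCL@CNT1 and 71.1 on PUCL in differentiation medium (516 and 460 counts), against 267 CPM on PUCL@CNT1 and 297 on PUCL in maintenance medium (1667 and 1959 counts). Both maintenance libraries were high, both differentiation libraries were low, and the groups lay far apart. The scaled count was 3.44-fold lower on PUCL@CNT1, a ratio of 0.291 (95% interval 0.263 to 0.321), and 4.17-fold lower on PUCL, a ratio of 0.24 (0.216 to 0.265). These are exact Clopper-Pearson intervals on 2 counts and leave out scatter between libraries. The fitted log2 change was -1.92 (SE 0.268, edgeR adjusted p 1.73e-07), which ranked 13 of 10516 genes by p. All 9 other fits kept the call, as did all 4 fits that left out 1 library together with the platform term, with adjusted p from 0.000109 to 0.0267.

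The Tfrc start region is shown because Tfrc had the largest fitted medium change of the 8 genes, and that of Ncoa4 because it holds the same short motifs in a gene that did not pass the test. Each line gives the 250 bases before the gene start from RefSeq, build GRCr8, read 5′ to 3′ on the gene's own strand, with ACGTG (the core of the hypoxia response element) and TGACG (the half-site of the cAMP response element) in capitals. The counts themselves were made on rn6, and windows were matched by symbol, for 6 of the 9 genes (not Fth1, Ftl1 or Hmox1).
Tfrc (chr11:81690319-81690568, minus strand): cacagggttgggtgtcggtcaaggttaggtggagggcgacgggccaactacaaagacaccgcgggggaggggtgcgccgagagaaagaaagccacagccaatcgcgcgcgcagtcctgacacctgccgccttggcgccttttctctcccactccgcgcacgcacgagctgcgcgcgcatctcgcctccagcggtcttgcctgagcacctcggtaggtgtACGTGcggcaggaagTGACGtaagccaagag
Ncoa4 (chr16:7401541-7401790, plus strand): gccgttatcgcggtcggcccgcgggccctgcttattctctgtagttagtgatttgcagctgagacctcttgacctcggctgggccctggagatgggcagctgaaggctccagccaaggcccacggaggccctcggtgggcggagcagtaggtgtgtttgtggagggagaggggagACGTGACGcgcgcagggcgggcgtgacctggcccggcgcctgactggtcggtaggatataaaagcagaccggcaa

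The Tfrc window held ACGTG once, from 31 to 27 bases before the start, and TGACG once, from 16 to 12 bases before it, each on the printed strand. In Ncoa4 the same motifs overlapped, at 75 to 71 and 72 to 68 bases before the start. Searched on both strands, ACGTG stood in 16.6% and TGACG in 18.2% of 33469 rat windows of this length. The windows of Aco1 and Slc40a1 and both windows of Slc11a2 held neither, and that of Ireb2 held TGACG on the other strand. The GC box GGGCGG, found in 30.5% of windows, was in those of Aco1, Ireb2, Ncoa4 and Slc40a1 and in 1 of the 2 of Slc11a2, and not in that of Tfrc. TGANNNNGC, a loose form of the antioxidant response element core in which N is any base, was found in 34.7% of windows. It was in the window of Ncoa4 and in the other Slc11a2 window. These matches are descriptions of letters and say nothing of which factors act there.

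Slc11a2 encodes the divalent metal transporter that moves iron out of the endosome after transferrin uptake, and an iron-responsive element is known in the tail of some of its transcripts, which the counts do not separate. It had 11.7 CPM on PUCL@CNT1 and 15.6 on PUCL in differentiation medium (78 and 101 counts), against 26.3 CPM on PUCL@CNT1 and 22 on PUCL in maintenance medium (164 and 145 counts). The libraries of the 2 media did not overlap, yet the fitted log2 change of -0.83 (SE 0.743) did not pass in edgeR (adjusted p 0.844). On PUCL@CNT1 the ratio was 0.447 (95% interval 0.337 to 0.589), and on PUCL it was 0.711 (0.546 to 0.922). The first met a rule of size used for single pairs of libraries, a 2-fold or greater ratio with the nearer 95% bound past 1.5-fold. For medium on PUCL@CNT1 that rule marked 3 iron genes, Tfrc, Slc11a2 and Hmox1, all lower, beside 16.5% of all genes as higher and 14.5% as lower, 31% in all. For medium on PUCL it marked 1, Tfrc, as lower, beside 16.1% of all genes as higher and 15.3% as lower, 31.3% in all.

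Fth1, the ferritin heavy chain that oxidises iron for storage, rose by a like amount on both platforms. It stood at 2612 CPM on PUCL@CNT1 and 2053 on PUCL in differentiation medium (17363 and 13276 counts), against 1706 CPM on PUCL@CNT1 and 1332 on PUCL in maintenance medium (10655 and 8785 counts). The lowest differentiation library lay above the highest maintenance library. The ratio was 1.53 on PUCL@CNT1 (95% interval 1.49 to 1.57) and 1.54 on PUCL (1.5 to 1.58), and the fitted log2 change was 0.62 (SE 0.145, edgeR adjusted p 0.00482). The call held in 8 of 9 other fits and was lost when the platform term was left out (log2 0.62, adjusted p 0.175). With that term left out it was also lost without the PUCL@CNT1 differentiation library (log2 0.43, adjusted p 0.434), the PUCL@CNT1 maintenance library (log2 0.81, 0.716) or the PUCL maintenance library (log2 0.45, 0.916), and held without the PUCL differentiation library (log2 0.78, 0.0415).

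Ftl1, the ferritin light chain that helps form the iron core, had 318 CPM on PUCL@CNT1 and 262 on PUCL in differentiation medium (2114 and 1693 counts), against 234 CPM on PUCL@CNT1 and 201 on PUCL in maintenance medium (1460 and 1327 counts). The libraries of the 2 media did not overlap, and the ratios were 1.36 on PUCL@CNT1 (95% interval 1.27 to 1.46) and 1.3 on PUCL (1.21 to 1.4). The fitted log2 change of 0.41 (SE 0.233) did not pass in edgeR (adjusted p 0.519). Ferritin chains have processed copies elsewhere in rodent genomes, so reads of Fth1 and Ftl1 may have been split or lost in the authors' counting, and their levels are uncertain.

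Ncoa4, the cargo receptor that takes ferritin to the lysosome for iron release, stood at 62.1 CPM on PUCL@CNT1 and 55.1 on PUCL in differentiation medium (413 and 356 counts), against 105 CPM on PUCL@CNT1 and 61.6 on PUCL in maintenance medium (653 and 406 counts). The PUCL@CNT1 maintenance library stood above the other three, which lay close together. The medium ratio was 0.594 on PUCL@CNT1 (95% interval 0.524 to 0.673) and 0.894 on PUCL (0.774 to 1.03), with a fitted log2 change of -0.46 (SE 0.362) that did not pass in edgeR (adjusted p 0.782).

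Slc40a1 encodes ferroportin, the cellular iron exporter, and was close to the limit of detection. It had 4 counts on PUCL@CNT1 and 6 on PUCL in differentiation medium, against 0 on either platform in maintenance medium. A count of 0 allows up to 3 counts, which is 0.48 CPM on PUCL@CNT1 and 0.455 CPM on PUCL in maintenance medium. Against that floor per library, Slc40a1 in differentiation medium was at least 1.25-fold higher in the PUCL@CNT1 pair and at least 2.04-fold higher in the PUCL pair, while the exact lower bounds that allow for error in both counts were 0.62 and 1.2. It fell under the count minimum and was not tested.

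The mRNAs of the iron sensors did not pass for medium. Ireb2 (IRP2), the regulatory protein that is degraded when iron is plentiful, stood at 6.17 CPM on PUCL@CNT1 and 10.5 on PUCL in differentiation medium (41 and 68 counts), against 6.56 CPM on PUCL@CNT1 and 11.7 on PUCL in maintenance medium (41 and 77 counts). Its fitted log2 medium change was -0.12 with an SE of 1.4 (edgeR adjusted p 1). The ratio was 0.94 on PUCL@CNT1 (95% counting interval 0.594 to 1.49) and 0.901 on PUCL (0.64 to 1.26). Aco1 (IRP1), which switches between aconitase and RNA-binding protein as its iron-sulfur cluster is made or lost, had 61.5 CPM on PUCL@CNT1 and 127 on PUCL in differentiation medium (409 and 819 counts), against 94.3 CPM on PUCL@CNT1 and 106 on PUCL in maintenance medium (589 and 699 counts). The PUCL@CNT1 differentiation library was the lowest and the PUCL differentiation library the highest. Its ratio was 0.652 on PUCL@CNT1 (95% interval 0.574 to 0.741) and 1.2 on PUCL (1.08 to 1.32), with a fitted log2 change of -0.18 (SE 0.324, edgeR adjusted p 0.952).

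Hmox1, the inducible heme oxygenase, fell after the switch on average over the platforms. It stood at 234 CPM on PUCL@CNT1 and 116 on PUCL in differentiation medium (1554 and 750 counts), against 556 CPM on PUCL@CNT1 and 193 on PUCL in maintenance medium (3474 and 1272 counts). Each platform was lower in differentiation medium, but the media overlapped, since PUCL@CNT1 after the switch stayed above PUCL before it. The ratio was 0.42 on PUCL@CNT1 (95% interval 0.396 to 0.446) and 0.601 on PUCL (0.549 to 0.659), and the fitted log2 change was -0.99 (SE 0.233, edgeR adjusted p 0.00485). All 9 other fits kept the call, with adjusted p up to 0.0428. With the platform term also left out, it was lost without the PUCL differentiation library (log2 -0.68, adjusted p 0.388) or the PUCL@CNT1 maintenance library (log2 -0.14, 0.998), which held the highest value, and kept without either of the other two.

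**Figure D2:**
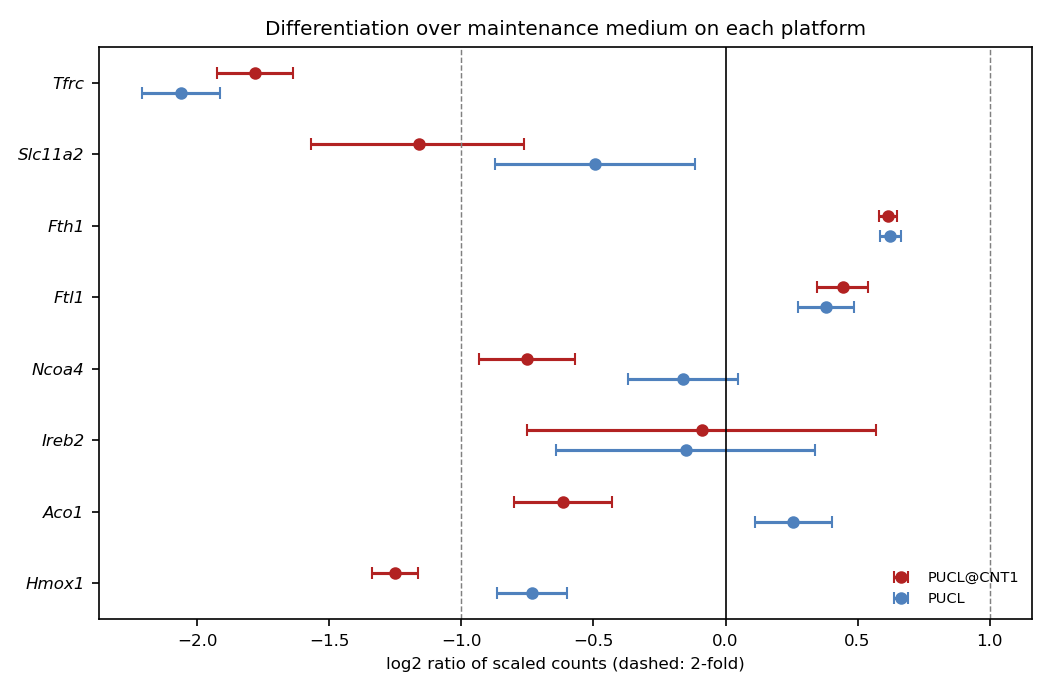
Log2 ratio of scaled counts, differentiation over maintenance medium (horizontal axis), for the 8 tested genes on PUCL@CNT1 (red) and PUCL (blue); points are single pairs of libraries, bars exact 95% counting intervals, and dashed lines 2-fold. Tfrc lies beyond 2-fold on both platforms, the ferritin chains lie to the right of 0, and Aco1 is the gene whose 2 points lie on opposite sides of 0 with intervals clear of it.

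Between the platforms, Hmox1 was the 1 iron gene of 8 that passed, and it was higher on PUCL@CNT1. The same edgeR fit called 0.456% of all genes for platform, 0.209% as higher and 0.247% as lower on PUCL@CNT1. At an unadjusted p under 0.05 it marked 2 iron genes, Hmox1 and Fth1, and 6.95% of all genes. Hmox1 was 2.01-fold higher on PUCL@CNT1 than on PUCL in differentiation medium (95% interval 1.85 to 2.2) and 2.88-fold higher in maintenance medium (2.7 to 3.08). The fitted log2 difference was 1.27 (SE 0.234, edgeR adjusted p 0.000622), which ranked 8 of 10516 genes by p. The call held in 7 of 9 other fits and was lost among genes with a mean of 100 or more counts (adjusted p 0.0985) and with the medium term left out (0.398). With the medium term left out it was also lost without the PUCL differentiation library (log2 1.04, adjusted p 1), the PUCL@CNT1 maintenance library (log2 0.60, 0.996) or the PUCL maintenance library (log2 1.77, 0.356), and held without the PUCL@CNT1 differentiation library (log2 1.86, 0.00119). The ribosomal RNA entry Rn45s also moved with platform, with 4.25% and 4.54% of counts on PUCL@CNT1 in differentiation and maintenance medium, against 6.72% and 5.66% on PUCL. With ribosomal RNA entries left out, the Hmox1 difference was as large (log2 1.27, edgeR adjusted p 0.000747). That fit only drops these entries and keeps 10513 of the 10516 genes, so it cannot show whether the libraries differ in other ways. Such differences were not tested.

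The other iron genes did not pass for platform, and their median fitted log2 difference together with Hmox1 was 0.12, beside -0.0019 for all genes. Fth1 was 1.27-fold higher on PUCL@CNT1 in differentiation medium (95% interval 1.24 to 1.3) and 1.28-fold higher in maintenance medium (1.24 to 1.32), with a fitted log2 difference of 0.35 (SE 0.145, edgeR p 0.017, adjusted p 0.499). Aco1 had a ratio of 0.486 in differentiation medium (0.43 to 0.548), and 0.89 in maintenance medium (0.796 to 0.994). By the size rule for pairs, Hmox1 as higher and Aco1 as lower met it in differentiation medium, beside 15.2% and 15.6% of all genes, 30.8% in all. Hmox1 was at the edge of the rule there, and fell just short of it when scaled by total counts. In maintenance medium Hmox1 alone met it, as higher, beside 12.2% of all genes as higher and 13.9% as lower, 26.1% in all. Ireb2 had ratios of 0.586 (0.388 to 0.876) and 0.562 (0.375 to 0.832) in the same order, from 41 to 77 counts a library. Both PUCL@CNT1 libraries lay above both PUCL libraries for Hmox1 and Ncoa4, as for 15.2% of all genes, and below them for Ireb2 and Aco1, as for 14.9%. Tfrc had ratios of 1.09 (0.96 to 1.24) in differentiation and 0.898 (0.841 to 0.959) in maintenance medium, a fitted log2 difference of -0.02 (SE 0.26, adjusted p 1).

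**Figure D3:**
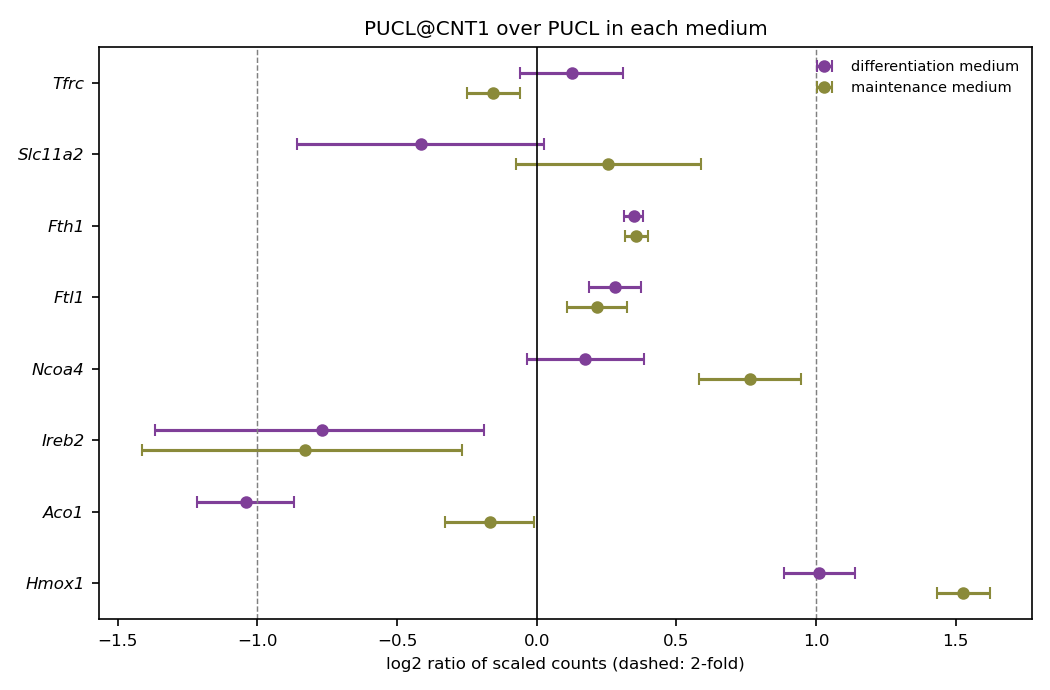
Log2 ratio of scaled counts, PUCL@CNT1 over PUCL (horizontal axis), for the 8 tested genes in differentiation (purple) and maintenance medium (olive); points are single pairs of libraries, bars exact 95% counting intervals, and dashed lines 2-fold. Hmox1 lies beyond 2-fold in both media, with log2 ratios of 1.01 and 1.53, and Aco1 does so in differentiation medium alone (-1.04).

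Whether the platform difference depended on the medium is what the additive fit leaves as its residual, so it was described by size only. None of the 8 genes met the size rule for it, beside 29.5% of all genes, 15.4% upwards and 14.1% downwards. The platform ratio in differentiation medium divided by that in maintenance medium was 0.546 for Aco1 (95% normal interval 0.465 to 0.642), 0.63 for Slc11a2 (0.435 to 0.912), 0.665 for Ncoa4 (0.551 to 0.802) and 0.699 for Hmox1 (0.627 to 0.779). For Fth1 it was 0.993 (0.958 to 1.03) and for Ftl1 1.05 (0.948 to 1.15). For Tfrc it was 1.21 (1.05 to 1.4), the one interval above 1, and for Ireb2 1.04 (0.608 to 1.79).

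Genes working beside these in iron and heme handling were read from 10 lists of 94 entries, of which 91 were in the files and 80 reached the count minimum. After the switch 3 of the 80 rose in edgeR, or 3.75% beside 2.81% of all genes, and none fell; DESeq2 also called 3, beside 1.62% of all genes, and limma-voom 1, beside 2.8%. At an unadjusted p under 0.05 edgeR marked 10 of the 80, or 12.5%, near the 12.1% of all genes. The median fitted log2 medium change over the 80 was 0.19, also with the 14 genes that had 0 counts in a library set at the floor. For platform, 0 of the 80 passed in edgeR, beside 0.456% of all genes, and 1 of the 80 had an unadjusted p under 0.05, or 1.25% beside 6.95%.

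Tf, transferrin, which delivers iron to the receptor, had 119 counts on PUCL@CNT1 and 386 on PUCL in differentiation medium, against 39 on PUCL@CNT1 and 1 on PUCL in maintenance medium (fitted log2 4.10, SE 1.02, edgeR adjusted p 0.00939). Its scaled ratio was 2.87 on PUCL@CNT1 (95% interval 1.98 to 4.23) and 394 on PUCL (70.3 to 15592), the second from a single count. Cp, ceruloplasmin, the oxidase that works with ferroportin, had 110 counts on PUCL@CNT1 and 363 on PUCL in differentiation medium, against 9 on PUCL@CNT1 and 0 on PUCL in maintenance medium (edgeR adjusted p 0.000273). It was 11.5-fold higher on PUCL@CNT1 (5.83 to 25.8) and at least 123-fold higher on PUCL, against the floor of 3 counts, with an exact lower bound of 99.9-fold. Both genes were high in the PUCL differentiation library, lower in that of PUCL@CNT1, and near 0 on PUCL before the switch. Limma-voom called neither (adjusted p 0.321 for Tf and 0.209 for Cp), and without the PUCL differentiation library and the platform term neither passed (log2 2.48, adjusted p 0.53 for Tf, and log2 4.49, 0.301 for Cp). Tf also did not pass without the PUCL maintenance library and that term (log2 2.63, 0.274), or among genes with a mean of 100 or more counts (0.153). Without the PUCL@CNT1 maintenance library and that term, the fitted log2 was 7.83 for Tf and 10.90 for Cp, and both passed. In the adult brain Tf is known as a product of oligodendrocytes and Cp of astrocytes. The summed oligodendrocyte lineage markers given above were also higher in differentiation medium, and 4 of the 9 genes passed in edgeR. Not all 9 were higher on PUCL, where Mog had 59 counts in differentiation against 112 in maintenance medium, and Cspg4 22 against 105. Summed astrocyte markers stood at 481 CPM on PUCL@CNT1 and 993 on PUCL in differentiation medium, against 502 and 520 CPM in maintenance medium. In edgeR 1 of the 6 astrocyte markers rose after the switch, and 1 was lower on PUCL@CNT1 than on PUCL. S100b made up most of the astrocyte sum in the PUCL differentiation library, with 3939 counts against 683 on PUCL in maintenance medium. Gja1 went the other way on PUCL (1963 against 2388 counts), and Gfap and Aqp4 had at most 31 and 12 counts in a library. The part of oligodendrocyte lineage cells and astrocytes in the changes of Tf and Cp was not tested.

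Among genes that control ferroptosis, an iron-dependent cell death, Slc7a11 was the 1 of 6 that passed for medium in edgeR, and it was higher. Slc7a11, the cystine importer, had 662 counts on PUCL@CNT1 and 465 on PUCL in differentiation medium, against 184 on PUCL@CNT1 and 95 on PUCL in maintenance medium, ratios of 3.38 (95% interval 2.87 to 4) and 4.99 (4 to 6.29). Its fitted log2 change was 2.03 (SE 0.424, edgeR adjusted p 0.00107). With the platform term left out, it held without the PUCL differentiation library (0.00498) and was lost without any other single library, with adjusted p up to 0.365. Its partner chain Slc3a2 had a fitted log2 change of 0.48 (adjusted p 0.284). Acsl4, which favours ferroptosis, had -0.85 (adjusted p 0.108) and was chosen after its values were seen.

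No gene of the other 7 lists passed for medium or platform in edgeR. Among the genes with most counts in these lists, fitted log2 medium changes were -0.20 for the iron chaperone Pcbp2 (adjusted p 0.927), 0.13 for the ubiquitin ligase subunit Skp1 (0.947) and 0.25 for the heme precursor carrier Tmem14c (0.917). Those of the heme oxygenase electron donor Por (-0.11, 0.953), the small Maf protein Mafg (-0.13, 0.953) and the mitochondrial iron-sulfur protein Cisd1 (0.19, 0.907) did not pass either. In the uptake list that holds Tf, the gene with most counts was Cd63, an exosome protein, with 0.32 (adjusted p 0.306). Of the genes that act with Hmox1, all chosen after their values were seen, the constitutive heme oxygenase Hmox2 had log2 0.20 (adjusted p 0.953). The biliverdin reductases Blvra and Blvrb had 0.32 (0.953) and -0.45 (0.952). Fbxl5, the iron-sensing subunit that marks IRP2 for degradation, had -0.98 (adjusted p 0.64), and the heme synthesis enzyme Cpox -1.19 (0.242). Both were also chosen after their values were seen. For each, both differentiation libraries lay below both maintenance libraries, as for 19.3% of all genes.

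**Figure D4:**
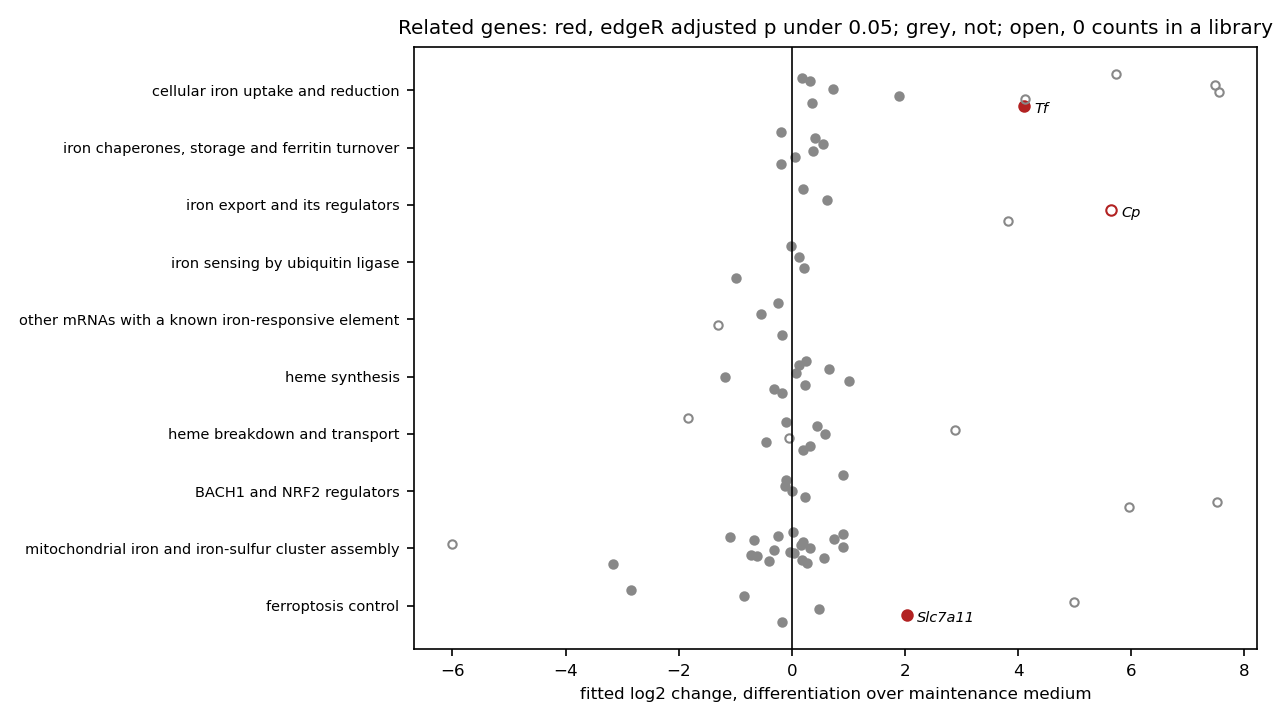
Fitted log2 change, differentiation over maintenance medium (horizontal axis), of the 80 tested related genes in 10 lists (rows); each point is a gene, red where the edgeR adjusted p was under 0.05, and open where a library had 0 counts, so that the fitted value depends on the prior count. The 3 red points are Tf, Cp and Slc7a11.

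Genes with the most similar pattern were found by the Euclidean distance between centred log2 CPM values over the 4 libraries, among 6203 other genes with a mean of 100 or more counts. For Tfrc these were Mpdz (distance 0.0573), Zfx (0.241) and Eif2ak4 (0.321). Eif2ak4 had 155 counts on PUCL@CNT1 and 170 on PUCL in differentiation medium, against 483 and 542 in maintenance medium, and it fell in edgeR (log2 -1.69, adjusted p 0.00981). For Hmox1 they were Rab8b (0.0866), Ankrd32 (0.0877) and Ranbp10 (0.214), none of which passed for medium or platform. For Fth1 they were Synj2 (0.0595), LOC689574 (0.0625) and RGD1311946 (0.066). Slc11a2 was nearest to Fam76a (0.0603), Cstf3 (0.0609) and Emd (0.0615), Ftl1 to Pfkl (0.0321), Lrrc59 (0.0421) and Bop1 (0.0475), Ncoa4 to Desi2 (0.0895), Tab2 (0.099) and Ankra2 (0.11), and Aco1 to Tpx2 (0.0617), Mum1 (0.0758) and Adam10 (0.0816). With 4 libraries a small distance is easily reached, and these names are a description only.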

How the data were processed

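Libraries were made with Lexogen QuantSeq, a method for transcript 3′ ends, from Trizol-extracted RNA, per the labels' protocols. The authors deposited whole-number read counts for each gene symbol, not normalized. Bowtie2, bedtools and build rn6 were used, per the submitters' processing notes; versions, annotation, strand setting and filters are not given in the sources used here. Overlapping and antisense genes therefore cannot be told apart.

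Entries of 1 symbol were summed (149 symbols had several, none of the 9 genes). Genes with 10 or more counts in a library were kept, 10516 of 16881, and scaled with edgeR's TMM factors. The edgeR 4.0.16 quasi-likelihood fit (R 4.3.3) had medium and platform as terms, 1 residual degree of freedom and 87.2 prior degrees of freedom; standard errors come from its F statistic. Log2 ratios of library pairs used a prior count of 0.5. Reads carry no molecular identifiers, so intervals and floors (3 counts) cover counting error only. Nothing says that libraries came from separate cultures, so p-values cannot be read as measuring spread between cultures. They rest on what the fitted terms leave unexplained in these libraries, pooled mostly over other genes. Alternatives included DESeq2 1.42.0 and limma 3.58.1 (voom). The fits were tested on simulated data. The genes, lists and rules were chosen with earlier results of these data known. Named genes are the 9, related genes past the threshold, the gene with most counts in each list (for 1 list it is not reported here), the 3 genes nearest in pattern, and those said to be chosen after their values were seen. Of the related genes, 2 were matched under an older symbol.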

Additional observations from a re-analysis of the deposited data

Results flagged for a closer look

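Aco1 moved in opposite directions on the 2 platforms after the switch, each beyond its counting interval. The log2 ratio of differentiation over maintenance medium was -0.62 on PUCL@CNT1 and 0.26 on PUCL. The difference between the platforms was not tested, since each value is 1 pair of libraries.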

How the results depend on the processing

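With 1 library per group, no library has a repeat, and every value rests on pairs of single libraries. The medium calls of Tfrc, Hmox1 and Fth1 held under total-count scaling, RLE scaling, DESeq2, limma-voom, both count filters and the other handling of symbols, and without ribosomal RNA entries. All genes called for medium numbered 296, against 170 in DESeq2, 141 at a mean of 100 or more counts, 176 without the platform term, and, without that term and 1 library, 263 (PUCL@CNT1 differentiation left out), 231 (PUCL differentiation), 25 (PUCL@CNT1 maintenance) and 35 (PUCL maintenance). The 3 iron genes called became 1 to 2 without 1 library and that term. The 3 related genes called became 1 in limma-voom, and 1 to 2 without 1 library and that term. For platform, 48 genes were called, against 28 with total counts, 18 with RLE scaling, 87 in limma-voom, 25 without the filter, 0 at a mean of 100 or more counts, 0 without the medium term, and, without that term and 1 library, 27, 0, 24 and 1 with the libraries left out in the same order. The 1 iron gene called became 0 at a mean of 100 or more counts, 0 without the medium term, and 0 to 1 without that term and 1 library. The causes of these moves were not tested.

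Fitted values that changed sign did not pass the threshold. The platform difference of Slc11a2 (-0.08) was 0.02 in limma-voom and 0.01 without the medium term. With the other term left out, the values that changed sign without the PUCL@CNT1 differentiation library were 0.49 for Slc11a2 and 0.54 for Tfrc in the platform difference and 0.20 for Ireb2 and 0.33 for Aco1 in the medium change, and without the PUCL maintenance library 0.28 for Slc11a2, 1.28 for Tfrc and 0.34 for Ireb2. Over the 4 libraries left out in turn, fitted log2 values ranged from -0.68 to 0.49 for Slc11a2 and from -1.25 to 1.28 for Tfrc in the platform difference, and from -0.56 to 0.34 for Ireb2 and from -0.70 to 0.33 for Aco1 in the medium change.

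Under a looser size rule (1.5-fold, bound beyond 1-fold) the iron genes past it were 6 in place of 3 for medium on PUCL@CNT1, 3 in place of 1 for medium on PUCL, 3 in place of 1 for platform in maintenance medium, and 3 in place of 0 for the change of the platform difference, beside 50.2%, 49%, 42.2% and 47.9% of all genes. Under a stricter one (3-fold, bound beyond 2-fold) they were 1 for medium on PUCL@CNT1, 0 in place of 2 for platform in differentiation medium and 0 for platform in maintenance medium, beside 19.9%, 20.9% and 17.4% of all genes. By the 2-fold rule, the count for platform in differentiation medium was 1 with total counts and 1 with RLE scaling, beside 30.9% and 30.8% of all genes. Under both, Aco1 still met the rule and Hmox1, 2.01-fold higher with TMM factors, fell just short of it. No paired analysis was possible because each group holds 1 library, so no replicate numbers pair libraries; the platform term of the fit matches libraries by platform only.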
